A study of Mus musculus with 2 samples.

Results

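The guanylate-binding proteins (GBPs) are large GTPases of the dynamin superfamily, and their genes were described here on the 2 arrays of a study of mouse myeloid cells. The members were the 8 genes Gbp2 to Gbp9, found as the probes whose RefSeq accession maps to 1 of these symbols. They had 9 probes, of 55669 on the array, and all 8 genes were among the 13843 genes (of 20143 with a probe) measured on both arrays. The family was selected on its signals in this same pair of arrays, so its log2 ratios are given as a description, with no test.

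Marrow from C57BL/6 mice was cultured over 4 days with 5% fetal bovine serum. One culture, GM-CSF + IL-6, received 40 ng/ml of GM-CSF and 40 ng/ml of IL-6, and the other, GM-CSF ONLY, received 40 ng/ml of GM-CSF alone. GM-CSF, which drives growth of granulocytes and macrophages, was thus shared by both cultures, while IL-6 is an inflammatory cytokine that signals through STAT3. The labels call the resulting cells myeloid-derived suppressor cells (MDSCs), a name for immature myeloid cells with T cell suppressing activity. Cy3-labelled total RNA was read on Agilent arrays, 1 per culture, so the spread between cultures is unknown and no p-value is given. The age and sex of the mice, and whether marrow was pooled, are not given in the sources used here.

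GBPs are induced by interferons, above all by interferon-gamma, with IRF1 among the transcription factors involved. They bind and hydrolyse GTP, assemble into coats on the vacuoles of intracellular parasites and on bacteria in the cytosol, and help to expose bacterial lipopolysaccharide to caspase-11. In the mouse their genes lie in a cluster on chromosome 3, which holds Gbp2, Gbp3, Gbp5 and Gbp7 among the members, and a cluster on chromosome 5, which holds Gbp4, Gbp6, Gbp8 and Gbp9. Interferon-induced genes carry the interferon-stimulated response element (ISRE), bound by IRF proteins, and the gamma-activated site (GAS), bound by STAT dimers. STAT3, the factor downstream of IL-6, also binds GAS-like sites.

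Promoters of 4 of the 8 members, Gbp2, Gbp3, Gbp5 and Gbp7, matched an entry by symbol in the RefSeq promoter table (build GRCm38.p6), which spans 250 bases before to 50 bases after a start site. They are shown for the positions of the ISRE in genes whose 4 ratios lay on the same side. Gbp4, Gbp6, Gbp8 and Gbp9 had no entry. Capitals mark each match to the ISRE core, searched on both strands as the letters GAAA, any 2 bases and GAAA again. All 4 sequences are on the plus strand of chromosome 3, at chr3:142620413-142620712 for Gbp2, chr3:142559794-142560093 for Gbp3, chr3:142496684-142496983 for Gbp5 and chr3:142530086-142530385 for Gbp7.
Gbp2: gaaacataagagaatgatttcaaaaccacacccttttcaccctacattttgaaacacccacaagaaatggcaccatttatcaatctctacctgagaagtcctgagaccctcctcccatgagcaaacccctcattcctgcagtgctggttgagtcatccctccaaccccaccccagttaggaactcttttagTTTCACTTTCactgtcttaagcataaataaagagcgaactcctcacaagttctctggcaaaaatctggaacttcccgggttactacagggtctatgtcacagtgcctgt
Gbp3: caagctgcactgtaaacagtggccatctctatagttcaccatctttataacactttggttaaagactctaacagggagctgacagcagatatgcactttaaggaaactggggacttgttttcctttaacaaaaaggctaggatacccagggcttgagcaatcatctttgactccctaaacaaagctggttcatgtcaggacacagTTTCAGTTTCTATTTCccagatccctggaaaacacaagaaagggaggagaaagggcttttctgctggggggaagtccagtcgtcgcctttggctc
Gbp5: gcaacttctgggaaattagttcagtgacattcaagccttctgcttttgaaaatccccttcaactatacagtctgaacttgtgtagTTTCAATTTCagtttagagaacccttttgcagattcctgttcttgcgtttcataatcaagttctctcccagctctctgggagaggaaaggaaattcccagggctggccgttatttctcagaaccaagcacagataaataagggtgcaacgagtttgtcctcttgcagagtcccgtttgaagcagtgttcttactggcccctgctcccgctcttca
Gbp7: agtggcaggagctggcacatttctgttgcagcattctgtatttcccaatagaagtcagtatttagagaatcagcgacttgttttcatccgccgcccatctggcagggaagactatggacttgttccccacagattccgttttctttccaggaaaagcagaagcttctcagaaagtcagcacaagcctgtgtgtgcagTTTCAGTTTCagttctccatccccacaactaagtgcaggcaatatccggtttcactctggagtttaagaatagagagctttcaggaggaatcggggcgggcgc

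All 4 promoters held the ISRE core, each time on the minus strand, where it reads TTTCACTTTC in Gbp2 and TTTCAATTTC in Gbp5. The match lay at bases -59 to -50 from the start site in Gbp2, -53 to -44 in Gbp7 and -165 to -156 in Gbp5. Gbp3 held 2 overlapping matches, at -45 to -36 and -39 to -30, and its other promoter in the table held none. Of all 32851 promoters of this length, 3.44% held the core. It was also common in lists of interferon-induced genes described below. Of those with a promoter entry, it was held by 6 of 8 immunity-related GTPase genes and 10 of 16 genes that lean towards type I interferon. Of 12 genes that lean towards interferon-gamma, 3 held it. The lists and members are counted by gene, with any of its promoters, while 3.44% is a share of promoters. The GAS letters TTCNNNGAA, which read the same on both strands, occurred 2 times in Gbp5 (TTCTGGGAA at -245 to -237, TTCTCAGAA at -52 to -44) and 2 times in Gbp7 (TTCCAGGAA at -106 to -98, TTCTCAGAA at -87 to -79), against 8.30% of all promoters with a match. No GAS match and ISRE core match shared a base. Gbp2 and Gbp3 held no GAS match in this window. A match is a description of letters, not a bound site.

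The signals below are the processed intensities scaled to a common 75th percentile, and a log2 ratio is GM-CSF + IL-6 minus GM-CSF ONLY. The technical SD beside a ratio comes from probes printed at least 5 times on each array, and each member probe was printed 1 time. Signals of different probes are not compared, since probes bind with different strength. The 9 probes were well above background on both arrays, with no saturated spot and no spot marked as an outlier, and all lay above the lowest 25% of genes by signal (155.6). A gene was counted as lower with IL-6 where its signal in GM-CSF ONLY was at least 25% above that with IL-6, a log2 ratio of -0.32, and as higher where the reverse held.

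Among the chromosome 3 members, Gbp2 is a prenylated GTPase that coats the vacuole of Toxoplasma in mouse cells. Its probe had a signal of 5187 with IL-6, against 5879 in GM-CSF ONLY (log2 ratio -0.18 ± 0.04, technical SD). Gbp3, another member of the coat on the parasite vacuole, had 2318 with IL-6 and 2669.8 without (-0.20 ± 0.05). Gbp5, also prenylated and tied to inflammasome activation in macrophages, had 791 with IL-6 and 900.3 without (-0.19 ± 0.06). Gbp7, which in mouse macrophages has been linked to assembly of the phagocyte oxidase, had 1096 with IL-6 and 1173 without (-0.10 ± 0.06). The 4 probes thus lay on the same side, with the signal in GM-CSF ONLY between 1.07-fold and 1.15-fold that with IL-6. In bulk RNA such as this, fewer cells of a type and less RNA per cell cannot be told apart.

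Among the chromosome 5 members, Gbp4 has been described in the mouse as a brake on IRF7. Its probe had a signal of 505 with IL-6, against 670.2 in GM-CSF ONLY (-0.41 ± 0.09). Gbp9, which is also recruited to the Toxoplasma vacuole, had 497 with IL-6 and 634 without (-0.35 ± 0.09). Gbp8 had the dimmest probe, with 180.3 with IL-6 and 237 without (-0.39 ± 0.09). The 3 probes lay between 1.28-fold and 1.33-fold lower with IL-6.

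**Figure D1:**
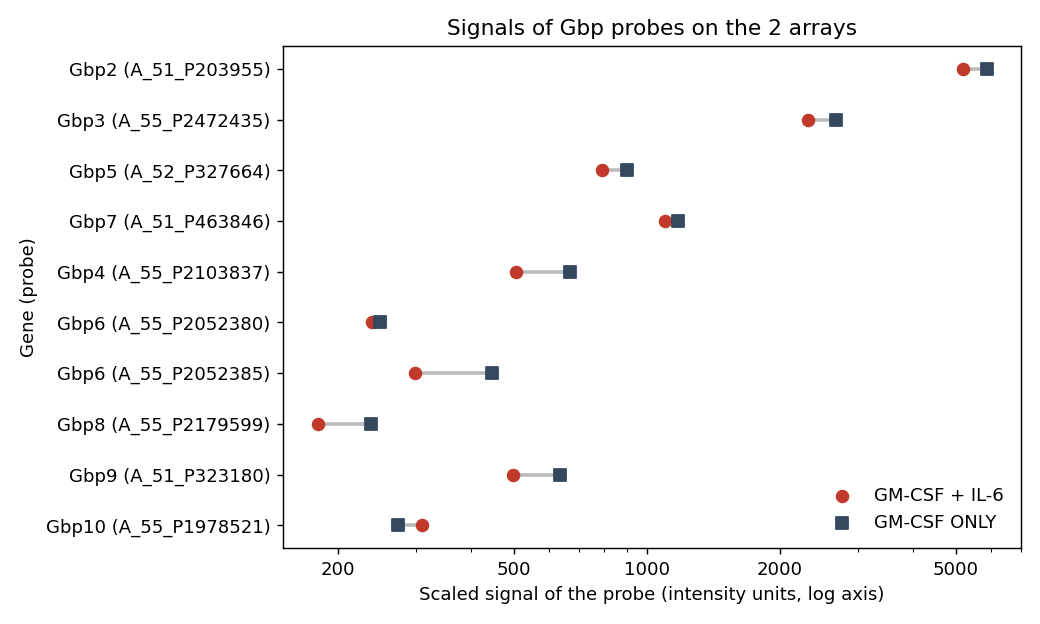
Scaled signal of each Gbp probe (x axis, intensity units, log axis) on the GM-CSF + IL-6 array (red circles) and the GM-CSF ONLY array (dark squares), 1 array each, with probes down the page and no error bars. The red circle lies left of the square for all 9 probes of the 8 members, and right of it for Gbp10.

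Gbp6, a further GTPase of the coat on the parasite vacuole, was measured with 2 probes for the same transcript, which differed. Probe A_55_P2052385 had a signal of 299 with IL-6 and 446 without (-0.58 ± 0.09, 1.49-fold lower), the largest difference of the family. Probe A_55_P2052380 had 239 with IL-6 and 249 without (-0.06 ± 0.09), within its technical SD of 0. The ratios of the 2 probes were 0.52 apart. Over 2239 genes with at least 2 probes above the lowest 25% by signal, the brightest 2 probes of a gene differed by a median of 0.09, and 0.447% differed by 0.52 or more. Sequences of the probes were not used here, and GBP genes are close relatives, so signal from another member's RNA was not tested.

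Of the other genes with a Gbp symbol, 1 was measured on both arrays, and it lay on the other side of 0. This gene, Gbp10, a neighbour of Gbp6 on chromosome 5, had a signal of 309 with IL-6 and 273 without (0.18 ± 0.09). Gbp2b, the gene once called Gbp1, had 2 probes, neither well above background on either array (10.6 and 3.42 with IL-6, 9.70 and 12.1 without), so no fold is given. Gbp11 was not analysed here.

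With 1 value per gene, from its brightest probe, all 8 members were below 0 (range -0.58 to -0.10), and their median log2 ratio was -0.28. Of all 13843 measured genes, 56.2% were below 0, with a median of -0.02. Of the 8, the 4 on chromosome 5 were counted as lower, against 3.55% of all genes, and no member was 1.5-fold lower, against 0.527% of all genes. With normexp background correction 2 of the 8, Gbp4 and Gbp6, were counted as lower. The count was 3 with the median over probes, where Gbp6 at -0.317 fell short of the limit (-0.322), and 3 after subtraction of neighbouring spots, where Gbp9 at -0.309 did. Among the 10382 genes above the lowest 25% by signal, where all members lay, 58.7% were below 0, 1.38% were counted as lower and 1.24% as higher, while 10.1% of the dimmer genes were counted as lower. The values that chose the family are these same ratios, so nothing is read from the counts. Counted from the lowest ratio, Gbp6 stood at 79 of 13843, Gbp4 at 259, Gbp8 at 296 and Gbp9 at 403. The chromosome 3 members stood higher, Gbp3 at 1455, Gbp5 at 1728, Gbp2 at 1832 and Gbp7 at 4047.

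**Figure D2:**
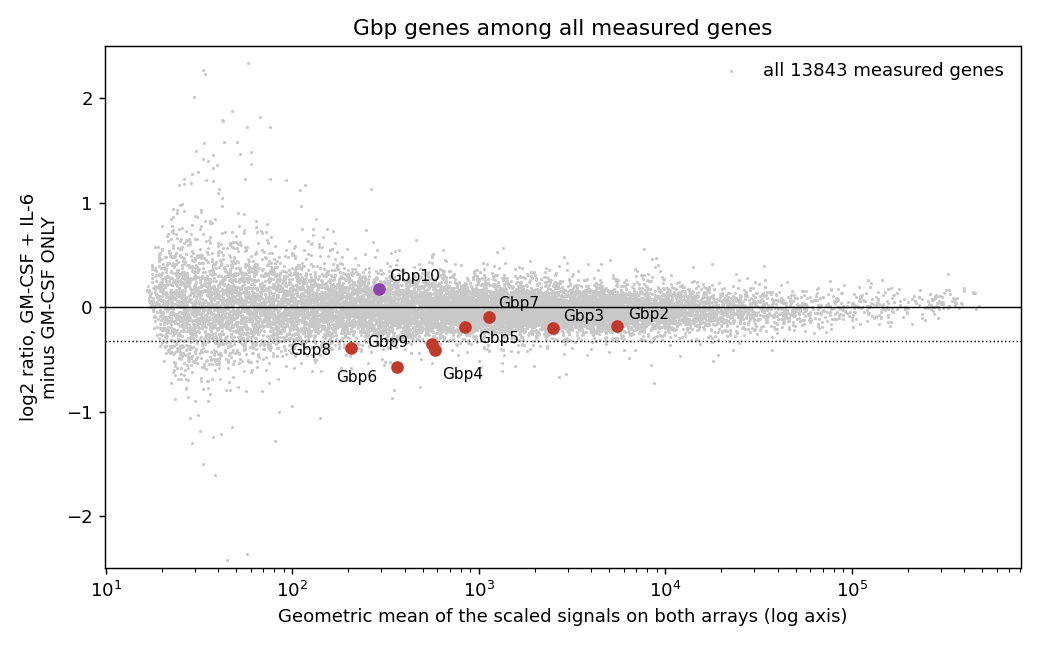
Log2 ratio (y axis, GM-CSF + IL-6 minus GM-CSF ONLY) against the geometric mean of the scaled signals on both arrays (x axis, log axis) for all 13843 measured genes (grey), the 8 members (red) and Gbp10 (purple), 1 brightest probe per gene. The dotted line marks the limit for a gene counted as lower (-0.32), and Gbp4, Gbp6, Gbp8 and Gbp9 lie below it.

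The members of the 2 chromosomes separated, a grouping chosen after the values were seen. The median log2 ratio was -0.40 over the 4 chromosome 5 members (-0.58 to -0.35) and -0.18 over the 4 chromosome 3 members (-0.20 to -0.10), and these ranges did not overlap in any of the 12 other processing settings. Several of these settings only filter probes or spots and kept the same spots of the measured members, so their ratios could not move. The split does not hold for every probe of chromosome 5, since the second Gbp6 probe had -0.06 and Gbp10 had 0.18. It also coincides with probe brightness. The 4 chromosome 5 genes all lay in the second lowest 25% of genes by signal (155.6 to 831), where 2.31% of genes were counted as lower. Gbp3, Gbp5 and Gbp7 lay in the next 25% (1.16%), and Gbp2 in the highest 25% (0.665%). Chromosome and probe brightness cannot be told apart with these 8 genes.

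Measured against larger errors, fewer of the ratios lay farther from 0 than the error. Of the 9 member probes, 8 were farther from 0 than their technical SD (0.04 to 0.09). The SD of a ratio between probes of 1 gene was 0.11, and 7 of the 9 exceeded it. The error model of the extraction software gave 0.20 to 0.21 for each ratio, and 4 exceeded it, those of Gbp4, Gbp8, Gbp9 and the first Gbp6 probe named above. None of these errors covers differences between cultures or labelling reactions. The middle 80% of all measured genes ran from -0.21 to 0.20, and genes outside that span also lay farther from 0 than 0.11. The share of all genes beyond each error was not counted. The family was chosen by these same ratios, so nothing is read from the counts of probes.

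**Figure D3:**
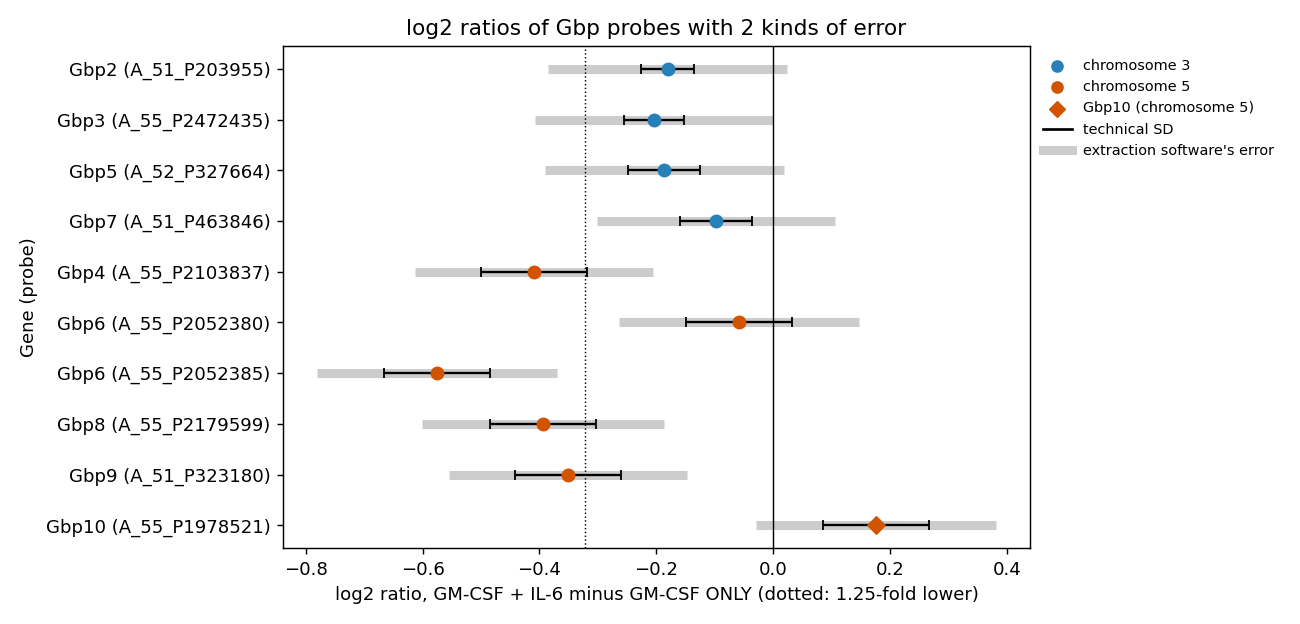
Log2 ratio of each Gbp probe (x axis, GM-CSF + IL-6 minus GM-CSF ONLY), with probes down the page and coloured by chromosome, the technical SD as a black bar and the extraction software's error as a grey bar. The grey bars of Gbp4, Gbp8, Gbp9 and probe A_55_P2052385 of Gbp6 do not reach 0, and Gbp10 (diamond) lies right of 0.

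Position on the array was checked because 10 areas of 16 rows by 12 columns, all toward its top, each held at least 4 unnamed probes that differed 2-fold between the arrays. The member probes lay between rows 15 and 344 and columns 18 and 151 of the 384 rows and 164 columns of spots. The measured spots around each of them (145 to 175 spots within 8 rows and columns) had median ratios between -0.05 and 0.07. After these were subtracted the member ratios ran from -0.52 to -0.05. The Gbp2 probe, at row 15, was the 1 of 9 in such a crowded area, and its ratio was -0.22 after subtraction. In the authors' own normalized values the 9 ratios differed from those above by at most 0.02.

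Genes of the steps upstream of the GBP genes were mostly below 0, and the receptor and kinase genes named here lay closer to 0 than the members' median of -0.28. The list of interferon signalling genes had 17 of 18 members measured on both arrays, 16 below 0 with a median of -0.18, and 1 counted as lower. Of all measured genes, 56.2% were below 0 and 3.55% were counted as lower. Ifng, the cytokine that most strongly induces GBPs, was dim (32.6 with IL-6, 39.1 without, -0.26 ± 0.17), and Ifnb1 was not well above background on either array. Receptor genes had ratios of 0.06 for Ifngr1, the highest of the list, -0.02 for Ifngr2, -0.20 for Ifnar1 (-0.06 and 0.03 on its other probes) and -0.10 for Ifnar2. The kinase genes Jak1 and Jak2 had -0.10 and -0.05.

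Among transcription factor genes, Irf1, Stat2 and Irf7 lay below all receptor and kinase genes named above, while Irf8 and Irf9 lay within their range. Irf1, needed for induction of many GBPs, had a signal of 10683 with IL-6 and 13090.3 without (-0.29 ± 0.04). Stat2 had -0.24 ± 0.04, Irf9 -0.16 ± 0.04 and Irf8, a myeloid lineage factor, -0.11 ± 0.04. Irf7, which drives transcription of type I interferons, had the lowest ratio of the list (1645 with IL-6 and 2170.3 without, -0.40 ± 0.06).

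Other interferon-induced genes were described by list, beside 56.2% of all genes below 0 and 3.55% counted as lower (1.38% above the lowest 25% by signal). Of the 20 genes that lean towards type I interferon, all were below 0, with a median of -0.31, from Ifi44 at -0.67 ± 0.06 to Bst2, the tether that holds back budding virus, at -0.13 ± 0.04, and 9 were counted as lower. Of the 20 that lean towards interferon-gamma, as GBP genes do, 14 were below 0, with a median of -0.05, and 2 were counted as lower, Cxcl10, a chemokine that draws T cells, at -0.51 ± 0.06 and Ido1, a dim probe, at -0.47 ± 0.24. The highest of them was Cd74, the MHC class II invariant chain, at 0.19 ± 0.04. The median of the GBP members, -0.28, lay between these 2 lists and nearer to the first. It joins a median of -0.40 over the 4 members on chromosome 5 and -0.18 over the 4 on chromosome 3. With normexp the members' median was -0.22, against -0.32 and -0.09 for the 2 lists.

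**Figure D4:**
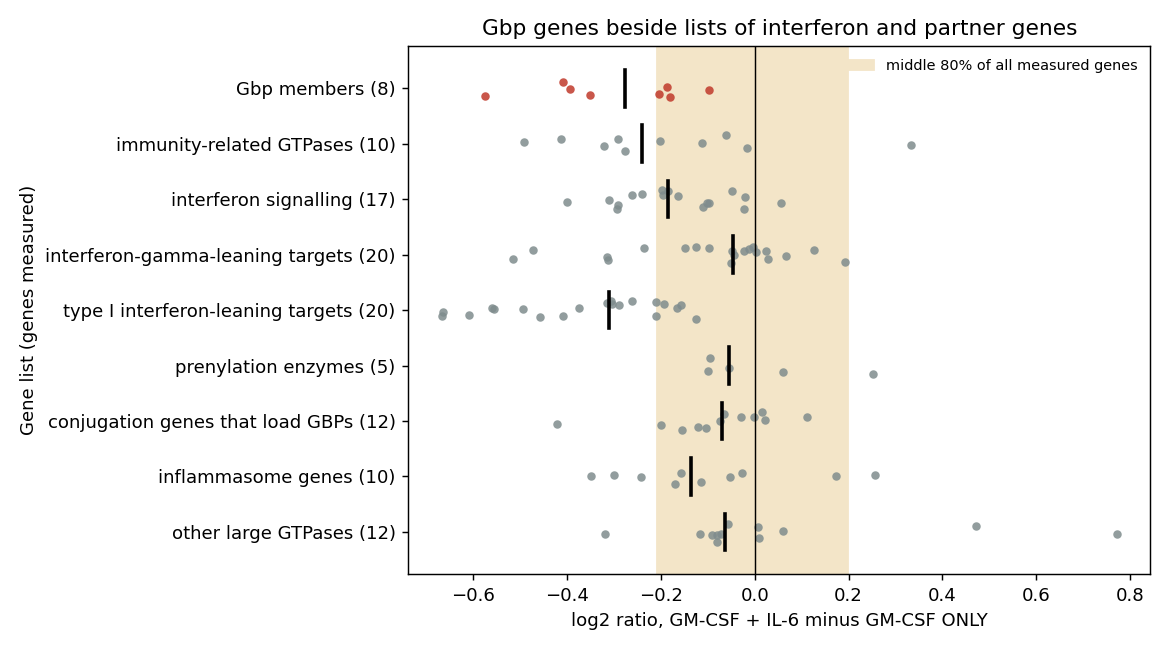
Log2 ratio (x axis, GM-CSF + IL-6 minus GM-CSF ONLY) of each measured gene (points, spread vertically to be seen) in the Gbp family and 8 lists of interferon and partner genes, with each list's median as a black bar and the middle 80% of all measured genes shaded (-0.21 to 0.20). The members (red, median -0.28) all lie left of 0, as do the 20 type I interferon-leaning targets (median -0.31).

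The immunity-related GTPases, a second family of interferon-induced GTPases that act with GBPs at the parasite vacuole, had 10 of 11 members measured. Of these 9 were below 0, with a median of -0.24, 2 were counted as lower and 1 as higher, against 4.17% of all genes counted as higher. Ifi47 had -0.41 ± 0.04 and Tgtp2 the lowest ratio at -0.49 ± 0.04, with 0.00064 on its other probe. Tgtp1 had the highest on a dim probe (71.1 with IL-6, 56.5 without, 0.33 ± 0.24). Irgm1, whose product guards host membranes, had -0.29 ± 0.05 (-0.30 on its other probe), Irgm2 -0.28 ± 0.05, Igtp, over 10 spots, -0.32 ± 0.01, just short of the limit, and Gm12250, which encodes Irgb10, -0.06 ± 0.09. A crowded area held the brighter Tgtp2 probe, and with such areas and the outermost spots left out the list's median was -0.16.

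The genes whose ratio was closest to the members' median of -0.28, among list genes above the lowest 25% by signal, were Irgm2 at -0.28, Oas2, Usp18, Irgm1 and Irf1, the last 4 all at -0.29. With 2 arrays a pattern is a single ratio, so this likeness carries no more than that number.

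Partners of the GBP proteins were closer to 0. The 5 genes of the prenylation pathway, which adds the lipid anchor to Gbp2 and Gbp5, had a median of -0.05 with 0 counted as lower, between Rce1 at -0.10 ± 0.06 and Fntb, a dim probe, at 0.25 ± 0.24. The 12 conjugation genes that help load GBPs onto vacuoles had a median of -0.07, from Trim21 at -0.42 ± 0.06 to Gabarap at 0.11 ± 0.04, and Atg5 had -0.20 ± 0.05. Trim21, an interferon-induced antibody receptor and ubiquitin ligase, was the 1 of 12 counted as lower, against 3.55% of all genes.

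The inflammasome genes on which GBPs act downstream had 8 of 10 members below 0, against 56.2% of all genes, and a median of -0.14. Casp4, which encodes caspase-11, had a signal of 6674 with IL-6 and 8221 without (-0.30 ± 0.04, and -0.29 on its other probe), and Casp1 had -0.16 ± 0.04. Gsdmd, the pore former of pyroptosis, had -0.03 ± 0.01. Aim2, a DNA sensor that GBPs help to activate, had the lowest ratio on a dim probe (157 with IL-6, 199.8 without, -0.35 ± 0.24). It was the 1 of 10 counted as lower, against 3.55% of all genes. Nlrp3 had the highest ratio at 0.26 ± 0.09, with 0.05 on its other probe.

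Large GTPases that interferon does not induce, such as dynamins, mitofusins and atlastins, had 12 of 14 members measured and a median of -0.06, with 7 below 0 and 2 counted as higher, Dnm1 (0.47 ± 0.04, and -0.10 on its other probe) and Ehd2, on a dim probe (67.6 with IL-6 and 39.6 without, 0.77 ± 0.24). None of the 12 was counted as lower. Of all measured genes, 56.2% were below 0, 3.55% were counted as lower and 4.17% as higher. Atl3, an atlastin of the endoplasmic reticulum, had the lowest ratio at -0.32 ± 0.09, just short of the limit.

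The ISRE core seen in the Gbp promoters was also counted over all measured genes with a promoter in the table, a question raised after the values were seen. Of 10655 genes with no match, 56.3% were below 0 and 3.39% counted as lower, with a median of -0.02. Of 398 genes with 1 match, 63.6% were below 0 and 6.78% counted as lower (median -0.05). Of 37 genes with 2 or more, 81.1% were below 0 and 24.3% counted as lower (median -0.19). With the members and the genes of the interferon and partner lists left out, but not the cell type markers, the shares counted as lower were 3.35% of 10594, 6.04% of 381 and 18.5% of 27 genes. The share counted as lower was thus larger with more matches in both counts, in this pair of arrays. The highest shares rest on 9 of 37 and 5 of 27 genes. The second count leaves out only genes of these lists, so other interferon-induced genes may remain in it. The groups were not set to equal signal, and the share counted as lower also differs by signal. Whether the core plays a part was not tested.

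**Figure D5:**
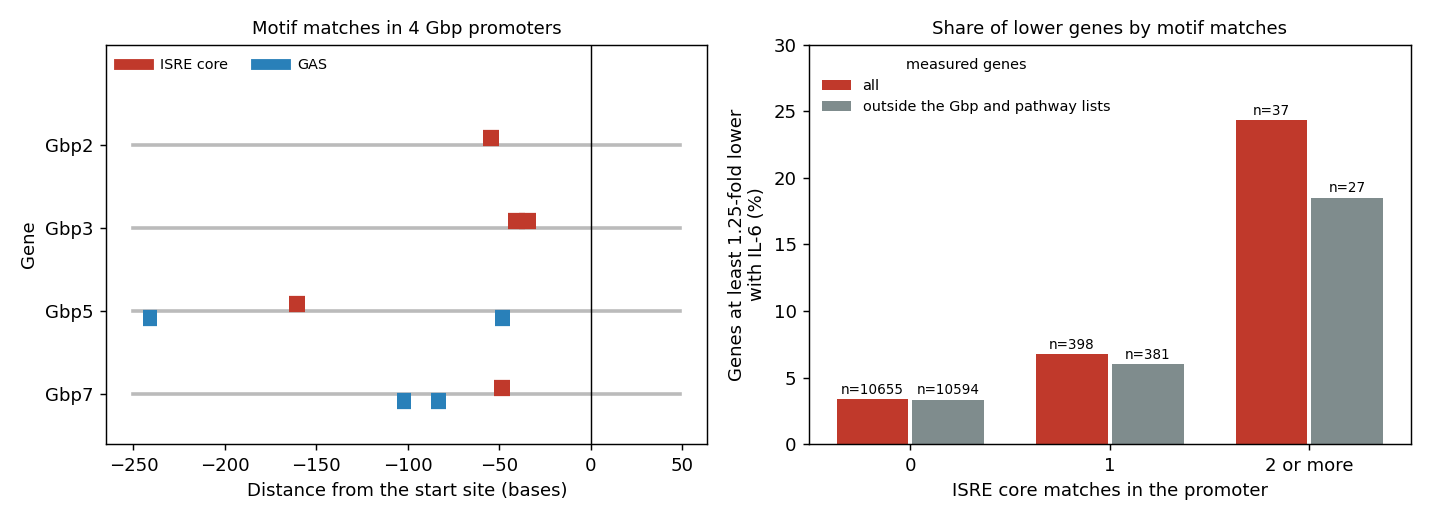
Left, positions of ISRE core (red) and GAS (blue) matches in the promoters of Gbp2, Gbp3, Gbp5 and Gbp7 (x axis, distance from the start site in bases); right, percent of measured genes counted as lower with IL-6 (y axis) by the number of ISRE core matches in the promoter (x axis), for all measured genes (red) and those outside the Gbp and pathway lists (grey), with the number of genes above each bar. The 4 promoters each hold the core, and the red bars stand at 3.39%, 6.78% and 24.3%.

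Markers of the cell types that the cultures could hold were set beside these ratios, against 56.2% of all genes below 0 with a median of -0.02. Of all genes 3.55% were counted as lower, and 1.38% of those above the lowest 25% by signal. All 10 MDSC markers on the list, among them Itgam, S100a8, S100a9, Arg1 and Nos2, were well above background on both arrays. They summed to a signal of 978038 with IL-6 and 921582 without, mostly S100a8 (378143 with IL-6, 355394 without) and S100a9 (470325 with IL-6, 427030 without). Of the 10 markers 6 were below 0, and the median was -0.07. Of T and NK cell markers, cells that make interferon-gamma, 10 of the 12 measured (of 15) were below 0, with a median of -0.15 and none counted as lower, and Ncr1, Klrb1c and Eomes were not measured on both arrays. Several of these probes were dim. The median was -0.04 over the 7 genes above the lowest 25% by signal, and -0.02 over the 12 with normexp. The summed signal of T and NK cell markers, 12105 with IL-6 and 11610.0 without, ran the other way, and Nkg7 made up most of it (7766 with IL-6, 7049 without). Of monocyte markers, 4 of 6 were below 0, with a median of -0.16, and 2 were counted as lower, Cx3cr1 at -0.58 on both probes and Ms4a6c at -0.43. The monocyte sum of 355598 with IL-6 and 364239 without was mostly Ly6c1 (283059 with IL-6, 280144 without). Of mature neutrophil markers, 6 of 7 were below 0, with a median of -0.18 and Fpr1 counted as lower at -0.36, and they summed to 383515 with IL-6 and 413200 without. Of dendritic cell markers, 6 of the 7 measured (not Xcr1) were below 0, with a median of -0.12 and Zbtb46, a dim probe, counted as lower at -0.34. They summed to 35543 with IL-6 and 40841 without, mostly Ccr7 (23982 with IL-6, 28859 without). Plasmacytoid dendritic cell markers, cells that make type I interferon, had 3 of 6 below 0. Their median was 0.004, and Cox6a2 was counted as higher at 0.36, against 4.17% of all genes counted as higher. They summed to 121198 with IL-6 and 125444 without, mostly Siglech (114307 with IL-6, 118464 without). Macrophage markers had 4 of 7 below 0 (Cd68 not analysed here) and summed to 16436 with IL-6 and 17097 without, and B cell markers had 5 of 6 below 0 and summed to 25538 with IL-6 and 26182 without. Endothelial markers had 0 of 2 below 0 (Cdh5, Tek and Emcn not measured on both arrays) and summed to 12307 with IL-6 and 11479 without. Most of this sum was Kdr (0.10, and -0.34 on its other probe). Stromal markers had 1 of 4 below 0 and 2 counted as higher, Col1a2 and Sparc, both on dim probes (Pdgfra and Cxcl12 not measured on both arrays). They summed to 5139 with IL-6 and 4312 without, mostly Lepr (4894 with IL-6, 4148 without). The part of these cell types in the Gbp ratios was not tested.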

How the data were processed

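Both cultures were grouped by the treatment in their labels, 1 Agilent array of 1 colour (Cy3) each. Per the header of the GM-CSF + IL-6 array, Agilent's extraction software (grid placement version 10.7.1.1) ran spatial and multiplicative detrending. The header of the GM-CSF ONLY array is not given here. The 75th percentiles of the deposited intensities were 486.2 with IL-6 and 549.7 without, so no scaling between arrays had been applied. The authors' matrix holds log2 values with equal medians (5.10), sorted columns that differ by at most 0.00136, and r of 0.99998 with each array's own values. It is thus quantile-normalized log2 signal, not centred per gene, made with software that the labels do not name.

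The processed intensity was divided by its array's 75th percentile and put on a log2 scale. Outlier spots were dropped, and spots of 1 probe were averaged. A probe was measured where at least 50% of its spots were well above background (57.9% of probes with IL-6, 59.1% without), and a gene took its brightest measured probe. For printing, signals were multiplied by 517.0, the geometric mean of both percentiles. RefSeq accessions without version were named through a table of assembly GRCm38.p6, which gave 1 symbol to 26577 of 28109 probes with such an accession. With 1 array per condition no test was run, and the number of arrays bounds the precision. The technical SD came from 266 probes in 5 bins of level, divided by the square root of a gene's spots. Named genes were the members, other Gbp symbols, the highest and lowest of each list, pathway genes set in a rule and the 5 nearest to the members' median, and Ifi47, Ido1, Dnm1 and single cell type markers were named after their values were seen. The members and lists were chosen with earlier results of these data known. The scripts were tested on simulated data. The values of 1 gene of the interferon signalling list are not reported here. Tools were Python 3.11.15, numpy 2.4.6, pandas 2.3.3, matplotlib 3.10.9 and, for other normalizations, limma 3.58.1 in R 4.3.3. Alternatives were 3 other normalizations, normexp with an offset of 50, the authors' matrix, other filters and probe rules, and 2 treatments of array position.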

Additional observations from a re-analysis of the deposited data

How the results depend on the processing

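The median log2 ratio of the Gbp members stayed between -0.35 and -0.22 over the 12 other settings, and each member measured was below 0 in each of them (Gbp2 was not measured without the crowded tiles and outermost spots). Subtraction of neighbouring spots was chosen after the data were seen. Of 95 recomputed ratios of single members, 90 moved by no more than the technical SD and 5 by more. Many of the 90 could not move. Settings that only filter probes or spots kept the same spot of each measured member, and the median over probes could change only Gbp6. Normexp lifts dim signals, and it also started from the mean spot and median background intensities, not from the processed ones. Which of these moved a ratio was not tested. With normexp Gbp2 had -0.12, Gbp6 -0.39 and Gbp8 -0.25. The members counted as lower numbered 2 (against 4) and all genes so counted 0.903% (against 3.55%). The mature neutrophil median was -0.14 (against -0.18). With the median over its probes Gbp6 had -0.317, short of the limit of -0.322, and after neighbouring spots were subtracted Gbp9 had -0.309, so 3 members were counted as lower in each of these settings. Gbp7 had -0.16 after that subtraction. The share of all genes counted as lower was 7.68% without a filter on dim probes, 7.11% with the looser background call and 1.38% above the lowest 25% by level, where the set of genes itself changes. The immunity-related GTPase median was -0.16 without crowded tiles and outermost spots, where a second Tgtp2 probe replaces the first. The endothelial marker median, over 2 genes, turned to -0.024 with the median over probes (against 0.09). Where no construction is given, the cause was not tested. Each array is 1 culture, so these ranges cover processing and not the spread between cultures. No paired analysis was possible because neither treatment had a second array.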
